A study of Rattus norvegicus with 18 samples.

Results

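Messenger RNA of the mitochondrial ribosomal proteins was measured in rat insulinoma cells that express a mutant insulin under doxycycline. Members were taken by name from the array's platform annotation: every symbol of Mrpl or Mrps followed by a number, with 1 probe set per gene, the one with the highest mean log2 signal among probe sets annotated to a single gene. This gave 73 genes of the 14217 that had such a probe set, 48 for proteins of the large subunit and 25 for proteins of the small subunit. All 73 were bright on these arrays, with mean signals of 390.7 to 6291.2 and a median of 1817.6, against a limit of 122 that a probe set had to reach to be tested, so none was lost to the filter. Mrps18a and Mrps30 are named for the small subunit, but their proteins sit in the large subunit of the mammalian mitochondrial ribosome, and they were counted there.

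The mitochondrial ribosome translates the few messages encoded by mitochondrial DNA, which specify core subunits of the respiratory chain and the ATP synthase. All of its proteins are encoded in the nucleus, made in the cytosol and imported, and are assembled there with ribosomal RNAs made from mitochondrial DNA. Some of these proteins belong to families shared with bacterial ribosomes, whereas others are found only in mitochondria. Doxycycline is a tetracycline, a class of antibiotic that binds the small subunit of the bacterial ribosome and blocks the entry of aminoacyl-tRNA, and tetracyclines also inhibit protein synthesis by mitochondrial ribosomes.

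The cells were INS-1 insulinoma cells of 1 clone (#4S2) that carries a doxycycline-inducible proinsulin C96Y fused to green fluorescent protein, a mutant proinsulin that misfolds in the endoplasmic reticulum. Cells in the 3 groups named Doxycycline received 2 µg/ml, either for 24 h, for 48 h or over 5 days, while cells in the 3 groups named Control, of the same clone, were grown without it for the same times. Each of the 6 groups had 3 arrays, numbered 1 to 3 for independent experiments, and a treated and an untreated array of the same number and time form a pair. The clone had been obtained by sorting the brightest green cells, and no cells without the transgene were analysed here, so an action of the drug on mitochondria and an action of the mutant insulin cannot be told apart in any value below.

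Of 12 listed beta cell genes 10 were measured, and all were bright on every array, from 17775 to 24703 for Ins1 and from 658 to 1445 for Nkx6-1. Of 14 genes of other cell types, 13 were below the limit for testing, and the other, Gcg, ranged from 7.87 to 2373. At 5 days 1 array stood apart and 1 pair went against its labels. The Doxycycline 5 days array of experiment 2 had a 3'/5' signal ratio of Gapdh of 2.91, against 1.05 to 1.19 on the other 17 arrays, and a median correlation with the other arrays of 0.93, against 0.953 to 0.964. In the 5-day pair of experiment 1, Sdf2l1, an endoplasmic reticulum stress gene, had a log2 ratio of -2.91 between the arrays labelled Doxycycline and Control, against 3.18 and 1.66 in experiments 2 and 3 and 1.76 to 2.28 in the 6 pairs at 24 h and 48 h, the opposite of what its labels say. Results at 5 days are given as labelled and also with the labels of that pair exchanged.

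At 24 h the mitochondrial ribosomal protein genes stayed close to their untreated level. In limma's paired fit, with Benjamini-Hochberg adjustment over all 15521 probe sets tested, 0 of the 73 genes passed an adjusted p of 0.05, where 1.09% of all tested probe sets passed as higher and 0.29% as lower. At an unadjusted p under 0.05, 1 gene was higher (Mrps18b, 1.37%) and 0 were lower (0%), against 7.6% and 6.96% of all tested probe sets. A two-sample test of each probe set alone called 0 members after adjustment. It also called 0 of all tested probe sets, so its count says nothing particular about the members. The median log2 fold change over the 73 genes was -0.03, against -0.01 over all tested probe sets. On the chosen probe sets single genes ranged from -0.17 (Mrpl49) to 0.23 (Mrps18b). Further tested probe sets of members ranged from -0.29 (Mrps2) to 0.21 (Mrpl51) at 24 h. A second probe set of Mrpl49, about as bright (mean signal 1497 against 1562), had -0.26 at 24 h and -0.18 at 48 h. For all 73 genes the 95% interval of the change lay within 1.5-fold in either direction, which was true of 88.4% of all tested probe sets. It was also true of 97.4% of 39 tested cytosolic ribosomal protein genes and 95.8% of 72 tested nuclear genes of respiratory chain subunits.

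At 48 h 3 genes passed the test, Mrps18b and Mrpl48 as higher and Mrpl37 as lower in Doxycycline than in Control cells, and the other 70 did not. Those 2 higher and 1 lower genes are to be read against the 5.64% of all tested probe sets that passed as higher and the 4.73% that passed as lower. At an unadjusted p under 0.05 the shares of members were 9.59% higher and 5.48% lower, against 13.4% and 14.5% of all tested probe sets. The median change was -0.01 on the log2 scale, the same as over all tested probe sets, and 36 genes had a positive and 37 a negative change. The changes had an SD over genes of 0.139, against 0.272 over all tested probe sets, with a median standard error of 0.0777 against 0.0909. The 95% interval lay within 1.5-fold for 72 of the 73 genes (98.6%), against 81.5% of all tested probe sets, the exception being Mrps18b. Such narrow intervals were not particular to these genes. They were found for 97.4% of 39 tested cytosolic ribosomal protein genes and 95.8% of 72 tested nuclear genes of respiratory chain subunits. The SDs over genes in those groups were 0.0883 and 0.169.

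Marker genes of the cells moved at the same time. Of the 10 beta cell genes 5 fell at 48 h and 0 rose, where 4.73% of all tested probe sets fell, and their median log2 fold change was -0.26. Mafa, an insulin gene transcription factor, fell by 1.07 (log2; SE 0.080, limma adjusted p = 0.00119), and Pcsk2, a prohormone convertase, fell by 0.69 (adjusted p = 0.00675), while Iapp, Neurod1 and Pdx1 had changes of -0.31, -0.32 and -0.45 (adjusted p = 0.0248, 0.0431 and 0.0444). The summed signal of the 10 genes was 98832 to 110880 on Doxycycline arrays and 114490 to 124240 on Control arrays at 48 h, without overlap, and 102550 to 113520 against 111530 to 120470 at 24 h. Gcg, the glucagon gene of alpha cells, fell by 2.71 at 48 h (adjusted p = 0.00112) and by 1.31 at 24 h (adjusted p = 0.0239). The signals of the 14 genes of other cell types were also summed at 48 h. The sum was 589.5 to 705.5 on Doxycycline arrays and 1811 to 2516 on Control arrays. That gap was largely the fall of Gcg itself, with signals of 261.48, 270.6 and 292.06 on Doxycycline arrays against 1908.5, 1470 and 2056.8 on Control arrays. All other genes of that list were below the limit for testing, so the sum does not speak for other cell types as a class. At 24 h Pcsk2 also fell, by 0.54 (adjusted p = 0.04). With 1 experiment left out, Mafa and Gcg still passed at 48 h while the other 4 genes at 48 h, and Pcsk2 and Gcg at 24 h, did not. Without the pairing Mafa and Pcsk2 still passed at 48 h (limma adjusted p = 0.0313 and 0.023). Gcg, Iapp, Neurod1 and Pdx1 at 48 h then did not (adjusted p = 0.148, 0.151, 0.164 and 0.0736). Neither did Gcg and Pcsk2 at 24 h (adjusted p = 0.175 for Pcsk2). The part of these shifts in the results for mitochondrial ribosomal proteins was not tested, and in bulk RNA fewer cells of a kind and less RNA per cell cannot be told apart.

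**Figure D1:**
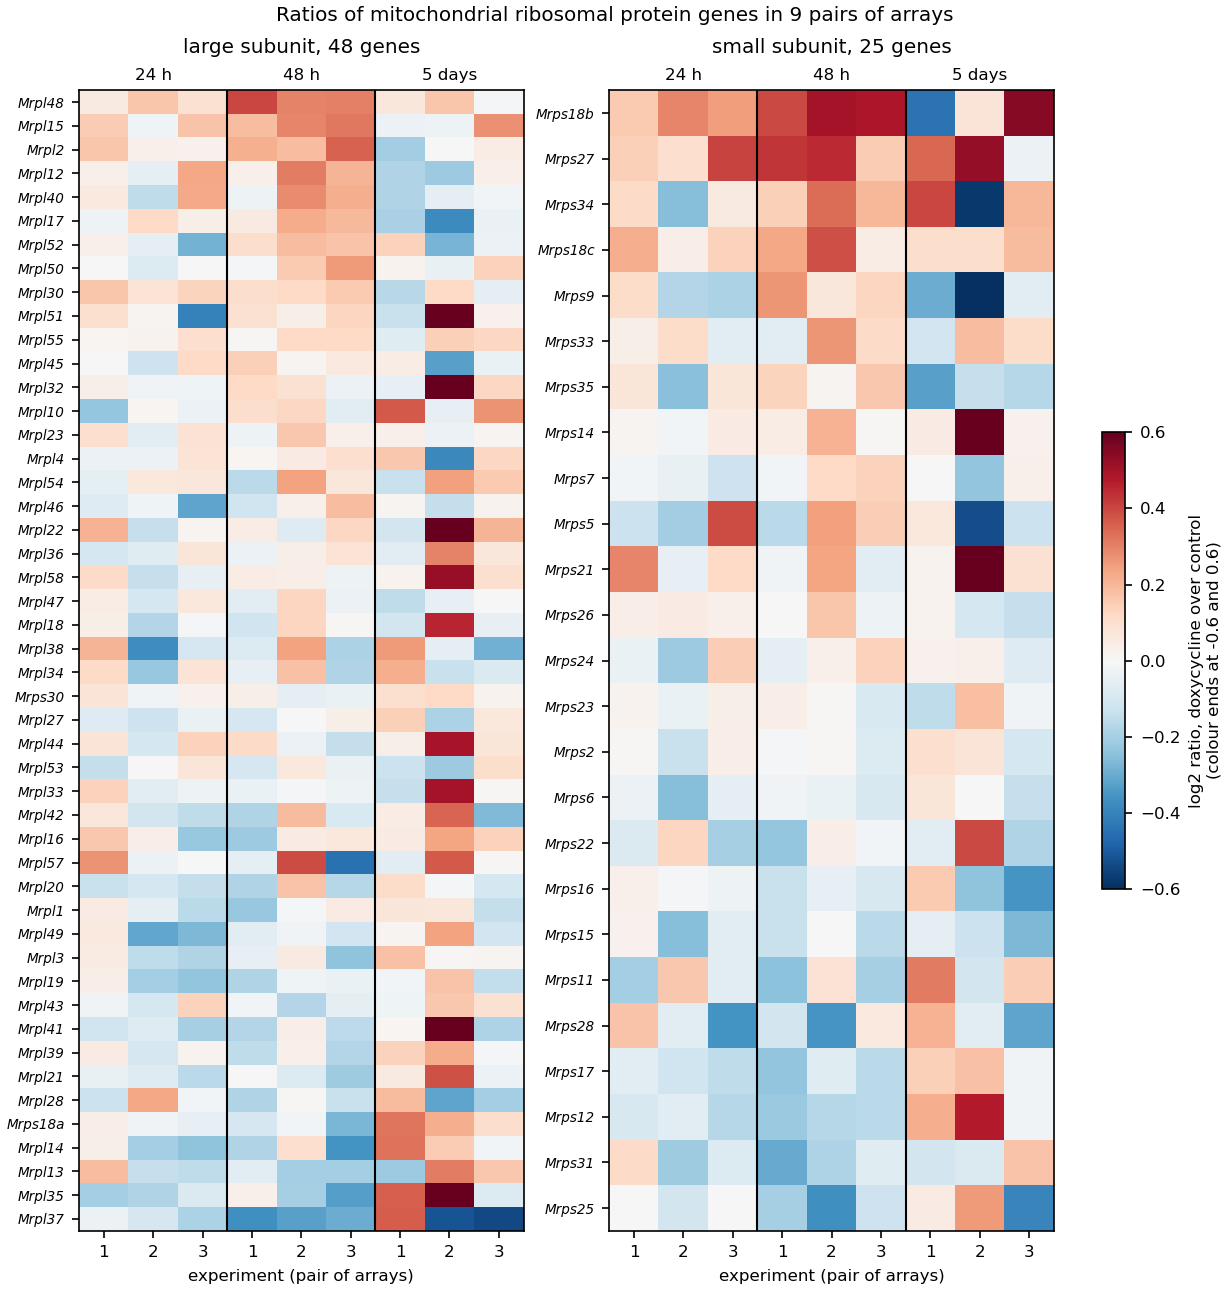
Colour shows the log2 ratio of Doxycycline over Control signal in each of the 9 pairs (columns, by time and experiment) for the 48 large subunit and 25 small subunit genes (rows, ordered by the change at 48 h). Most cells are pale, with Mrps18b and Mrpl48 at 1 end of the order at 48 h, Mrpl37 at the other, and stronger colours in the 5-day pair of experiment 2.

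Mrps18b encodes 1 of the 3 mammalian homologues of the bacterial small subunit protein bS18, and had the largest change of the 73 genes at 48 h. Its signal at 48 h was 1707, 1538 and 1536 in Doxycycline cells of experiments 1 to 3, against 1298, 1089 and 1098 in Control cells. Every treated array was above every untreated one. Mrps18b rose by 0.46 on the log2 scale (SE 0.065, n = 3 pairs, limma adjusted p = 0.00888), a fold of 1.37 with a 95% interval on the log2 scale of 0.31 to 0.61. At 24 h the signals were 1442, 1473 and 1222 in Doxycycline cells against 1294, 1201 and 1026 in Control cells, higher within each pair with overlapping groups, and the log2 fold change of 0.23 did not pass the test (adjusted p = 0.157). The other 2 homologues did not pass at 48 h: Mrps18c had a log2 fold change of 0.22 (adjusted p = 0.141) and Mrps18a, whose protein lies in the large subunit, one of -0.13 (adjusted p = 0.29).

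Mrpl48 encodes a large subunit protein found only in mitochondrial ribosomes. Its signal at 48 h was 2082, 2150 and 1942 in Doxycycline cells and 1576, 1750 and 1576 in Control cells, without overlap. Mrpl48 rose by 0.33 (log2; SE 0.064, n = 3 pairs, limma adjusted p = 0.0225), a fold of 1.26. At 24 h its groups did not overlap either, with 1863, 1918 and 1813 in Doxycycline cells against 1796, 1709 and 1700 in Control cells, but the log2 fold change of 0.10 did not pass the test (adjusted p = 0.515).

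Mrpl37, the gene of another large subunit protein of the kind found only in mitochondria, moved in the other direction. Its signal at 48 h was 2448, 2214 and 2155 in Doxycycline cells and 3161, 2773 and 2648 in Control cells, again without overlap. Mrpl37 fell by 0.33 (log2; SE 0.064, n = 3 pairs, limma adjusted p = 0.0234), to a fold of 0.795. A second probe set of Mrpl37 above the limit had a log2 fold change of -0.42 at 48 h (adjusted p = 0.0525). At 24 h the signal was 2400, 2825 and 2277 in Doxycycline cells against 2463, 3033 and 2601 in Control cells, lower within each pair with overlapping groups (log2 fold change -0.11, adjusted p = 0.486).

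Each of the 3 calls was lost when either experiment 1, 2 or 3 was left out, with adjusted p of 0.0634 to 0.101 for Mrps18b, 0.126 to 0.142 for Mrpl48 and 0.121 to 0.153 for Mrpl37. The direction held under all 14 alternatives run for each gene, with log2 fold changes of 0.44 to 0.49 for Mrps18b, 0.30 to 0.36 for Mrpl48 and -0.49 to -0.31 for Mrpl37.

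**Figure D2:**
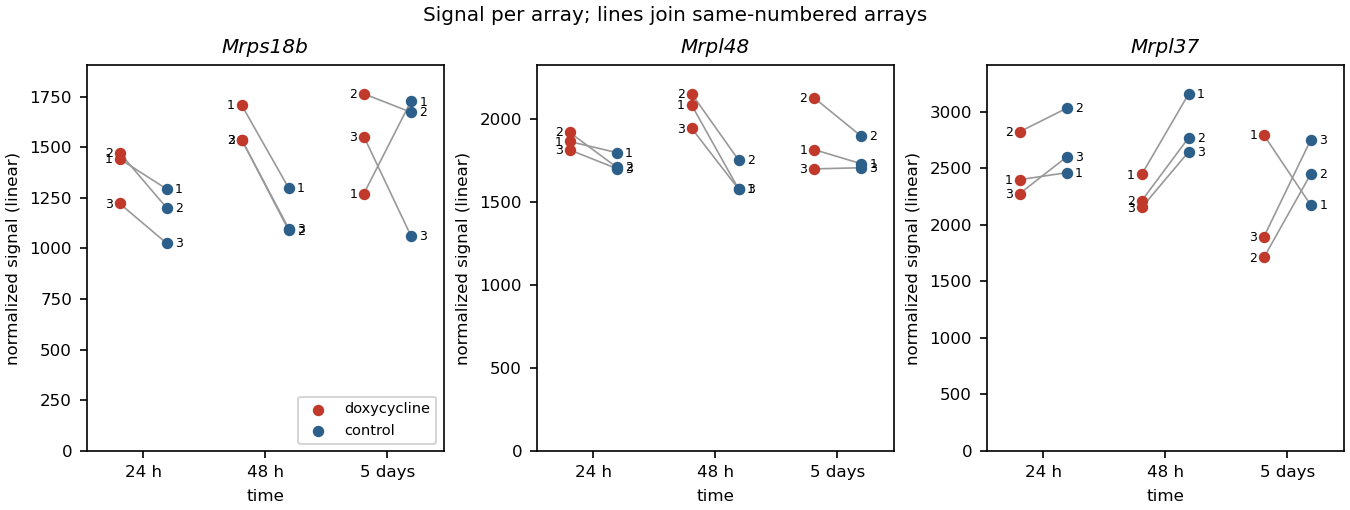
Normalized signal (linear axis) of Mrps18b, Mrpl48 and Mrpl37 on each of the 18 arrays, with Doxycycline left of Control at each time and a line joining the arrays of a pair. At 48 h the treated arrays of Mrps18b (1536 to 1707) and Mrpl48 (1942 to 2150) lie above the untreated ones, and those of Mrpl37 (2155 to 2448) lie below.

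The sequence around the start used for these 3 genes is shown because some nuclear genes of the mitochondrial ribosome share promoter motifs. The 3 motifs were searched for in the 250 bases before and 50 bases after the start used for each window (RefSeq, rat build GRCr8). A window was given for 59 of the 73 genes, and 19005 protein-coding genes in all were searched in the same way, on both strands. Capitals mark matches to AAGATGG, the core of sites of the factor YY1, to CCGGAAG, bound by ETS factors including GABP, and to GCATGCGC, bound by NRF1, each in the sequence or, as CTTCCGG for the second, in its reverse complement. The Mrps18b window lies at chr20:2842756-2843055 (plus strand), the Mrpl48 window at chr1:164351327-164351626 (minus strand) and the Mrpl37 window at chr5:127074918-127075217 (minus strand), each with 250 bases before the start used. That start is not the outer end of the annotated gene. The last 28 of those bases in Mrps18b and the last 33 in Mrpl37 lie within the gene's annotated extent. In Mrpl48 all 250 do, far from the outer end, since the annotated gene runs from 164308787 to 164370034 on the minus strand. Whether the Mrpl48 window acts as a promoter was not tested. Positions below are counted from the start used.
Mrps18b: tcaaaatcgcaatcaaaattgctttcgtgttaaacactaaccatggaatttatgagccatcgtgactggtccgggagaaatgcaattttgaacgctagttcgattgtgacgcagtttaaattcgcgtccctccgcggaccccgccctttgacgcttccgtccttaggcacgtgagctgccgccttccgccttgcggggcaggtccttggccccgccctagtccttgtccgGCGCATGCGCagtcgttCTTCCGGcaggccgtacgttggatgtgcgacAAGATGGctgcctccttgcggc
Mrpl48: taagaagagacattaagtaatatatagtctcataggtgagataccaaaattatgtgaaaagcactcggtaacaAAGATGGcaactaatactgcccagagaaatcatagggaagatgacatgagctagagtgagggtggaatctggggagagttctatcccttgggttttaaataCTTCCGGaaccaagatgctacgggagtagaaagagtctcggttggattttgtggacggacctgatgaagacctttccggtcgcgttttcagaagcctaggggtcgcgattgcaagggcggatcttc
Mrpl37: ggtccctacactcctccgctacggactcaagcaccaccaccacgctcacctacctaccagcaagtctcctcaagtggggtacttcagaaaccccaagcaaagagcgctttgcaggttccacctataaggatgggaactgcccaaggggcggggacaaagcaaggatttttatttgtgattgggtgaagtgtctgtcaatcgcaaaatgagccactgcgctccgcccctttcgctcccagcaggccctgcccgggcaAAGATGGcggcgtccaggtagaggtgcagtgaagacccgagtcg
In Mrps18b, the 10 capitals that come first hold overlapping NRF1 matches on both strands, the next run is the ETS match, which begins at base -3 counted from the start, and the last is the YY1 match, which begins at base 29 after it. Mrps18b was the 1 member of the 59 with all 3 motifs. In Mrpl37 the YY1 match begins at base 7 after the start, and in Mrpl48 the YY1 match begins at base -177 and the ETS match at base -76.

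Across the 59 members with a window, the YY1 motif was present in 15 (25.4%), against 7.58% of all windows, the ETS motif in 20 (33.9%), against 11.2%, and the NRF1 motif in 5 (8.47%), against 3.23%. At least 1 of the 3 motifs was found in 32 of the 59 and none in the others, a count that was not made over all windows. In 11 of the 15 genes with the YY1 motif it lay in sense between base -25 and base 50. A gene that rose and a gene that fell, Mrps18b and Mrpl37, both held the YY1 motif shortly after the start. A match of letters is a description and not a measured site.

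Among large subunit genes of bacterial families (28), 0 passed the test at 48 h, and the median log2 fold change was -0.01. Before adjustment 2 were higher (7.14%) and 0 lower (0%) in limma (p under 0.05), against 13.4% and 14.5% of all tested probe sets. The largest values were those of Mrpl15 and Mrpl2, homologues of the bacterial proteins uL15 and uL2. Mrpl15 had signals of 2591, 2606 and 2546 in Doxycycline cells and 2276, 2126 and 2044 in Control cells, a log2 fold change of 0.27 (adjusted p = 0.058), and the groups did not overlap. Mrpl2 had 866.5, 757.1 and 738.9 in Doxycycline cells and 747.1, 665.1 and 578.9 in Control cells, a log2 fold change of 0.25 (adjusted p = 0.0631), with overlapping groups. Mrpl12, the protein of the stalk that recruits translation factors, had 2564, 2931 and 2677 in Doxycycline cells against 2514, 2366 and 2326 in Control cells, a log2 fold change of 0.18 (adjusted p = 0.225). At the low end stood Mrpl35 at -0.17 (adjusted p = 0.245) and Mrpl13 at -0.16 (adjusted p = 0.288).

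Among the 20 large subunit genes found only in mitochondria, Mrpl48 and Mrpl37 were the 2 that passed, and the median was -0.02. Mrpl41 had the only non-overlapping lower signals at 24 h, with 3409, 3279 and 3008 in Doxycycline cells against 3707, 3458 and 3450 in Control cells, a log2 fold change of -0.13 (adjusted p = 0.453), and at 48 h a change of -0.10. Mrps30 had 2172, 2320 and 2298 in Doxycycline cells and 2122, 2407 and 2364 in Control cells at 48 h, and its log2 fold change of -0.02 had a 95% interval of -0.17 to 0.13. Mrpl58, a peptidyl-tRNA hydrolase built into the large subunit, had a log2 fold change of 0.02 at 48 h with an interval of -0.15 to 0.19.

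Among the 16 small subunit genes of bacterial families, Mrps18b was the 1 that passed at 48 h, and the median was 0.00339. Mrps12, homologue of the bacterial protein uS12 at the decoding centre, was lower within each pair at both times. Its signals at 48 h were 2103, 1886 and 1722 in Doxycycline cells and 2457, 2122 and 1929 in Control cells, a log2 fold change of -0.19 (adjusted p = 0.103) with overlapping groups, and at 24 h the change was -0.11 (adjusted p = 0.461). Mrps17 stood next to it at -0.16 (adjusted p = 0.172).

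Of the 9 small subunit genes found only in mitochondria, 0 passed the test in limma at 48 h. Before adjustment 2 were higher (22.2%) and 1 lower (11.1%) at p under 0.05, against 13.4% and 14.5% of all tested probe sets. Mrps27, the gene of a pentatricopeptide repeat protein, had signals of 780.6, 843.1 and 710.8 in Doxycycline cells and 579.6, 618.1 and 639.6 in Control cells at 48 h. Its groups did not overlap, and the log2 fold change was 0.34 (SE 0.093, adjusted p = 0.0606). The other probe sets of Mrps27 had changes of 0.35 and 0.38, and with all probe sets of each gene averaged Mrps27 passed the test. Mrps34 had a log2 fold change of 0.23 (adjusted p = 0.151). On the low side, Mrps25 had 1208, 1203 and 1263 in Doxycycline cells against 1384, 1554 and 1377 in Control cells, without overlap, and a change of -0.23 (adjusted p = 0.0917), and Mrps31 had one of -0.19 (adjusted p = 0.205).

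In all, at 48 h the signals of 8 members were higher on every Doxycycline array than on every Control array, against 11.3% of all tested probe sets, and those of 2 were lower, against 10.8%. The 8 were Mrpl12, Mrpl15, Mrpl17, Mrpl30, Mrpl48, Mrps18b, Mrps18c and Mrps27, and the 2 were Mrpl37 and Mrps25. At 24 h there were 2 above (Mrpl2 and Mrpl48) and 1 below (Mrpl41), against 5.03% and 3.72% of all tested probe sets. The ratio had the same sign in all 3 pairs for 18 genes on the high side and 14 on the low side at 48 h, and for 8 and 11 genes at 24 h. Same-sign counts were not made over all tested probe sets, so they are no result about the members.

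The changes at 48 h and 24 h of the same gene tended to run together, with a Pearson correlation over the 73 genes of 0.67, a Spearman correlation of 0.578, and the same sign in 50 genes. Over all tested probe sets the Pearson correlation was 0.679. The times used different arrays for both groups, genes are not independent replicates, and the arrays of both times share 1 cell clone. The difference between the times was tested as 48 h minus 24 h in the same fit, and 0 members and 0 of all tested probe sets (0%) passed. At an unadjusted p under 0.05, 2 members (2.74%) had a larger and 1 (1.37%) a smaller value at 48 h, against 3.35% and 3.32% of all tested probe sets. The larger change of Mrps18b, Mrpl48 and Mrpl37 at 48 h than at 24 h thus did not pass a test of its own (adjusted p = 0.735, 0.735 and 0.74).

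**Figure D3:**
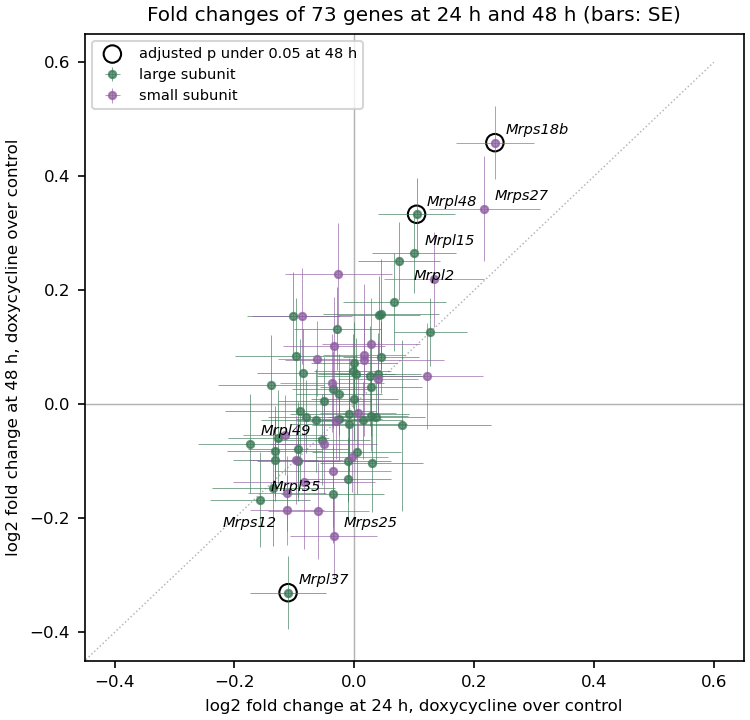
Log2 fold change, Doxycycline over Control, of each of the 73 genes at 24 h (horizontal axis) and 48 h (vertical axis), with bars of 1 standard error. Mrps18b lies farthest to the upper right at 0.23 and 0.46, Mrpl37 lowest at -0.11 and -0.33, and most genes lie near 0 on both axes.

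Between experiments the whole group shifted little and in no common direction. The median log2 ratio over the 73 genes in experiments 1, 2 and 3 was 0.04, -0.07 and -0.01 at 24 h, and -0.03, 0.05 and -0.03 at 48 h. The sign of the median therefore differed between experiments at both times. The SD over genes within a pair was 0.109 to 0.159 at 24 h and 0.158 to 0.177 at 48 h, against 0.237 to 0.276 and 0.318 to 0.341 over all tested probe sets. None of the 73 genes reached a 1.5-fold ratio in any of these 6 pairs.

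At 5 days 0 of the 73 genes passed the test in limma as labelled, as did 0 of all tested probe sets (0%). Before adjustment 0 members had a p under 0.05, against 1.11% of all tested probe sets as higher and 1.37% as lower. The two-sample test of each probe set alone called 0 members and 0 of all tested probe sets after adjustment. The median log2 fold change was 0.04, against 0.03 over all tested probe sets, with single genes from -0.41 (Mrps9) to 0.33 (Mrpl35). The standard errors were larger than at the earlier times, with a median of 0.173, and the 95% interval lay within 1.5-fold for 47 of 73 genes (64.4%), against 30.2% of all tested probe sets. For cytosolic ribosomal protein genes that share was 87.2%, and for nuclear respiratory chain subunit genes 59.7%. In the pair of experiment 2, which holds the array with the high Gapdh ratio, 8 members (11%) passed a 1.5-fold ratio, against 35.2% of all tested probe sets. The SD over the 73 genes was 0.346 there, against 0.175 and 0.168 in experiments 1 and 3, and that over all tested probe sets was 0.88, against 0.327 and 0.352. The part of RNA quality in these ratios was not tested.

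The 3 genes called at 48 h show what the labels of experiment 1 do to the 5-day values. Mrpl37 had 2796, 1712 and 1894 in Doxycycline cells against 2175, 2453 and 2755 in Control cells, so it was lower in experiments 2 and 3 and higher in experiment 1. Its log2 fold change was -0.23 as labelled and -0.47 with the labels of that pair exchanged. Mrps18b had 1270, 1764 and 1553 in Doxycycline cells against 1726, 1673 and 1063 in Control cells, a log2 fold change of 0.06 as labelled and 0.36 with the labels exchanged. Mrpl48 had 1815, 2127 and 1698 in Doxycycline cells against 1730, 1897 and 1705 in Control cells, a log2 fold change of 0.08, and 0.03 with the labels exchanged. With that pair exchanged 0 members passed the test, as did 0 of all tested probe sets. Before adjustment 1 member was lower (Mrpl37, 1.37%) and 0 were higher (p under 0.05), against 2.27% and 3.81% of all tested probe sets. The median over members was 0.02, as it was over all tested probe sets.

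**Figure D4:**
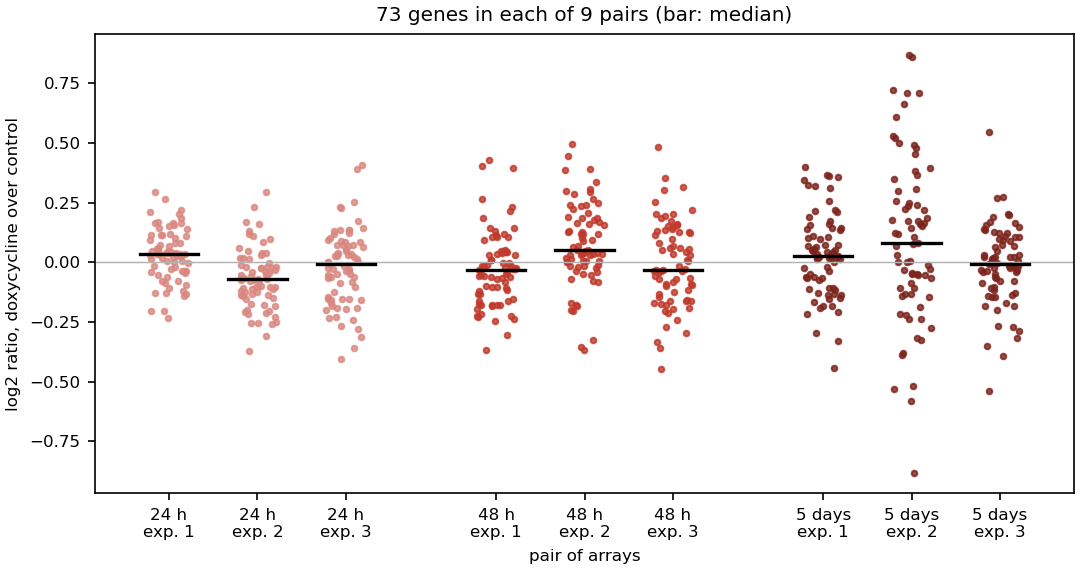
Each point is the log2 ratio of Doxycycline over Control of 1 of the 73 genes in 1 pair, and the 9 pairs are grouped by time, as labelled. The medians lie between -0.07 and 0.08, and the points spread most widely in the 5-day pair of experiment 2.

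Of 24 further probe sets of 18 members, 14 differed most from their representative at 5 days, 6 at 24 h and 4 at 48 h, and the median difference in log2 fold change was 0.251 at 5 days, 0.151 at 24 h and 0.119 at 48 h. Among those that differed by over 0.5 at 5 days, Mrps2 had a log2 fold change of 0.03 at 5 days on its representative and of -0.53 and -0.74 on its other 2 probe sets, Mrpl10 had 0.20 against -0.63 on the other, and Mrps27 had 0.28 against -0.63 and 0.04. At 48 h the same probe sets of Mrps2 had -0.03 against -0.04 and -0.22, and those of Mrpl10 had 0.05 against -0.05. Of the 24, 19 reached the limit for testing, and the dim ones of Mrps26, Mrps18c and Mrps22, with mean signals of 8.14 to 18.6, differed by over 0.5 from their representative at 1 time or more.

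Genes that serve the mitochondrial ribosome were described in the same way, and no difference between groups was tested. Of 23 tested genes of ribosome assembly, 2 rose (8.7%) and 0 fell at 48 h, against 5.64% and 4.73% of all tested probe sets. Mrm1, a methyltransferase of the mitochondrial large ribosomal RNA, had signals of 332, 347.6 and 286.6 in Doxycycline cells and 189.6, 221.8 and 200.3 in Control cells, and rose by 0.66 (log2; SE 0.075, adjusted p = 0.00496). Ngrn, which is needed for the stability of that RNA, had 1813, 1703 and 1677 in Doxycycline cells and 1307, 1238 and 1104 in Control cells, and rose by 0.51 (SE 0.076, adjusted p = 0.0101). The groups of both genes were separate. Of 6 ribosomal proteins with other names 0 passed. All 6 had positive values, as did 7387 of all 15521 tested probe sets, led by Oxa1l and Aurkaip1 at 0.22 each (limma adjusted p = 0.105 and 0.157). The unadjusted p was under 0.05 for 2 of the 6 (33.3%), against 13.4% of all tested probe sets as higher. Of 11 translation factors 0 passed, and 1 was higher at an unadjusted p under 0.05 (9.09%, against 13.4% of all tested probe sets). The largest value was that of the elongation factor Tsfm at 0.34 (limma adjusted p = 0.0709).

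Of 16 tested genes of mitochondrial DNA transcription and upkeep, 3 rose at 48 h (18.8%, against 5.64% of all tested probe sets) and 0 fell (against 4.73%). Nrf1, a transcription factor for many nuclear genes of mitochondrial proteins, had 484.2, 512.8 and 441.3 in Doxycycline cells and 341.5, 284.1 and 211.7 in Control cells, and rose by 0.81 (log2; SE 0.125, adjusted p = 0.0117). The treated arrays were all above the untreated ones. Tfb2m, which starts transcription of mitochondrial DNA, and Pprc1, a coactivator of the PGC-1 family, rose by 0.42 each (adjusted p = 0.0249 and 0.0235), whereas Tfam, Yy1 and Gabpa had log2 fold changes of -0.03, 0.04 and 0.03. Of 14 chaperones and proteases 2 rose (14.3%) and 0 fell. Hspa9, the import chaperone of the matrix, rose by 0.59 (SE 0.071, adjusted p = 0.00562), with 4830, 4780 and 4488 in Doxycycline cells against 3167, 3261 and 2931 in Control cells, and Htra2 rose by 0.37 (adjusted p = 0.0337). Of 11 mitochondrial aminoacyl-tRNA synthetases 0 passed at 48 h, and 1 was lower at an unadjusted p under 0.05 (9.09%, against 14.5% of all tested probe sets). At 24 h Fars2, which charges phenylalanine, fell by 0.50 (limma adjusted p = 0.0239), 1 of 11, where 0.29% of all tested probe sets fell. Its signals at 24 h were 860.4, 578.9 and 663 in Doxycycline cells against 1294, 783.9 and 915.1 in Control cells. These 8 calls were all lost when any 1 of the 3 experiments was left out, with adjusted p of 0.0536 to 0.248, and without the pairing Mrm1, Ngrn and Nrf1 kept theirs and the other 5 did not.

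**Figure D5:**
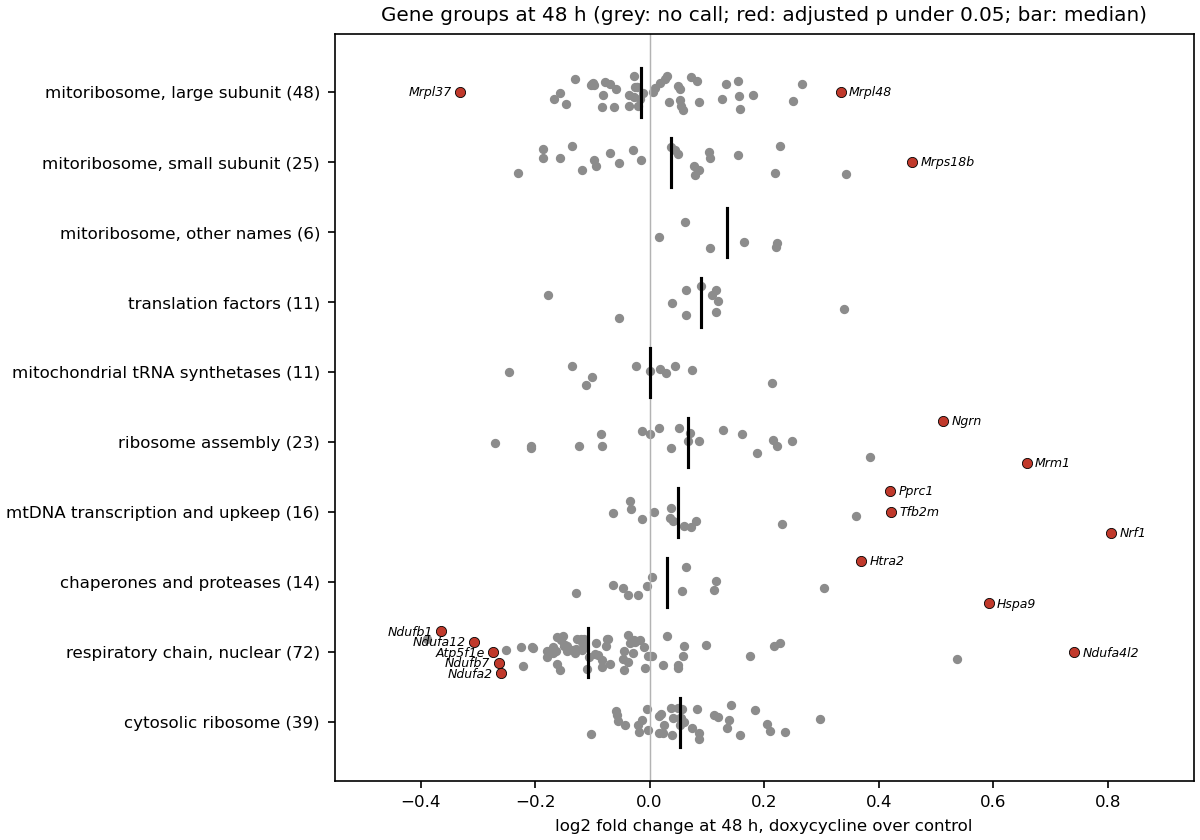
Log2 fold change at 48 h, Doxycycline over Control, of each tested gene (points) in 10 groups of genes, with the number tested in brackets, the median as a bar and genes that passed the test in red. The medians run from -0.11 for nuclear respiratory chain subunits to 0.14 for mitochondrial ribosomal proteins of other names, and the highest point is Nrf1 at 0.81.

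The products that the mitochondrial ribosome makes could not be read, since 0 of 13 genes of mitochondrial DNA were named in the annotation. Of 72 tested nuclear genes of the respiratory chain and ATP synthase, chosen by symbol, 1 rose at 48 h (1.39%, against 5.64% of all tested probe sets). That gene was Ndufa4l2 (0.74, limma adjusted p = 0.0349). Another 5 fell (6.94%, against 4.73%), and the median log2 fold change over the 72 was -0.11. The 5 were Ndufb1 (-0.36, adjusted p = 0.0221), Ndufa12 (-0.31, adjusted p = 0.0353), Atp5f1e (-0.27, adjusted p = 0.0473), Ndufb7 (-0.26, adjusted p = 0.0489) and Ndufa2 (-0.26, adjusted p = 0.0431). These 6 calls were also lost when any 1 experiment was left out (adjusted p of 0.0911 to 0.246) and when the pairing was dropped (0.101 to 0.353). Those of Atp5f1e and Ndufb7 ended without quantile normalization (0.0501 and 0.0601), and those of Atp5f1e, Ndufa2 and Ndufb7 with array medians (0.0665, 0.0665 and 0.0925). Before adjustment, 3 of the 72 respiratory chain and ATP synthase genes were higher (4.17%) and 19 lower (26.4%) at 48 h in limma (p under 0.05). The shares of all tested probe sets were 13.4% and 14.5%. Of 39 tested genes of the cytosolic ribosome 0 passed in limma, and the median was 0.05. Before adjustment 6 of them were higher (15.4%) and 0 lower (0%), against the same 13.4% and 14.5%. The median of the mitochondrial ribosomal proteins, -0.01, lay between those medians, and no test of these differences was run.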

How the data were processed

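RNA of 18 cultures was hybridised to Affymetrix Rat Genome 230 2.0 arrays. The deposited values are linear signal intensities from a program not given in the sources used here. Their trimmed means were nearly equal over the arrays (500.14 to 500.17), from which scaling of each array to the same trimmed mean was inferred. Probe cell data were not used. After quantile normalization, values were floored at the 10th percentile (5.99) and taken to log2, and the 57 control probe sets were left out. Of 31042 probe sets, the 15521 whose mean log2 signal reached the 50th percentile entered the test, in limma 3.58.1 (R 4.3.3), with the Benjamini-Hochberg adjustment and a threshold of 0.05. The 12 arrays of 24 h and 48 h were fitted together with 6 pairs as blocks, and the 6 arrays of 5 days alone. The labels number the replicates, which the study's methods call independent experiments, and the deviations of same-numbered arrays of a time correlated at 0.484 to 0.667 (24 h), 0.256 to 0.578 (48 h) and 0.109 to 0.149 (5 days), so the numbers were taken as pairs. No array held the values of another in any of 153 pairs of arrays. All come from 1 clone, so p-values measure the spread between experiments with it. Array number, 3 pairs a time, limits the precision. As alternatives, each probe set was tested alone on the same log2 values by an unpaired two-sample test with equal variances, and the study's rule of a 2-fold difference in at least 2 of 3 experiments was applied.

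Named are genes that passed the test at 24 h or 48 h, those with the 6 highest and 6 lowest changes at each time among genes of the same sign in 3 pairs, Mrps12, Mrpl12, Mrpl41 and Mrps30, genes whose probe sets differ by over 0.5, and of each other list the genes that passed or the 2 largest changes. A few others are named as extremes, after their values were seen. From the comparison groups chosen by symbol, 10 names that are no cytosolic ribosomal protein genes (kinases, an assembly factor, pseudogenes) and 8 that are no respiratory chain subunits (assembly factors, a pseudogene, an inhibitor) were removed by name. The members, lists and tests were chosen with earlier results of these data known. The fit was tested on simulated data. Alternatives covered the normalization, floor, filter, block, arrays fitted, probe set choice and left-out experiments. Figures and motif searches used Python 3.11.15.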

Additional observations from a re-analysis of the deposited data

Results flagged for a closer look

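For 4 genes every pair at 5 days moved opposite to every pair at 48 h, as labelled. This count was not made over all tested probe sets, so it is no result about the members. The 4 genes were picked by this opposite movement, so the test below is no independent support for it. Mrpl17, homologue of a bacterial large subunit protein, had a log2 fold change of -0.205 at 5 days and 0.156 at 48 h. Mrps18a had 0.214 at 5 days and -0.13 at 48 h, Mrps35 had -0.213 at 5 days and 0.103 at 48 h, and Mrps9 had -0.415 at 5 days and 0.155 at 48 h. The difference between the times was tested in a fit of all 18 arrays, chosen after seeing the data. It was -0.36 for Mrpl17, 0.34 for Mrps18a, -0.32 for Mrps35 and -0.57 for Mrps9, with limma adjusted p of 0.445, 0.445, 0.485 and 0.445. Of 15521 probe sets 0 passed. The unadjusted p was under 0.05 for 7 members as labelled. With the labels of the 5-day pair of experiment 1 exchanged it was so for 4. These counts were not made over all tested probe sets, so they are no result about the members. With those labels exchanged, the differences of the 4 named genes were -0.23, 0.13, -0.10 and -0.37 (limma adjusted p = 0.718, 0.783, 0.839 and 0.718). A second probe set of Mrps9 had a log2 fold change of -0.06 at 5 days and of -0.005 at 48 h, with the same sign at both times.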

How the results depend on the processing

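The count of 3 genes called at 48 h depended on the processing. It was 3 without quantile normalization, with array medians, without a floor, with normalization over the 12 earlier arrays and with the probe sets of a gene averaged (there Mrpl48, Mrps18b and Mrps27, with Mrpl37 lost). It was 0 without a filter, 1 (Mrps18b) with a filter at the 25th percentile, 1 (Mrps18b) with 48 h fitted alone, 0 in a fit of all 18 arrays, and 0 to 0 with 1 experiment left out. Calls over all probe sets were also fewer there, with 44 higher and 23 lower without a filter, 0 in the fit of all 18 arrays, and 108 and 38, 43 and 32, and 57 and 32 without experiments 1, 2 and 3, against 876 and 734. Without the replicate block 0 members passed at 48 h, against 3, and the calls over all probe sets were 207 higher and 65 lower at 48 h and 41 and 7 at 24 h, against 169 and 45 with it. At 24 h they were 0 without a filter, in the fit of all 18 arrays and without any 1 experiment, and 12 higher and 1 lower with the 25th percentile filter. Tested alone by an unpaired two-sample test, 0 members passed at 48 h after adjustment, where 121 of all 15521 probe sets passed as higher and 41 as lower. The unadjusted p of that test was under 0.05 for 9 members at 48 h (7 higher, 2 lower) and for 1 at 24 h (Mrpl48, higher). Over all 15521 probe sets the unadjusted counts were 1264 higher and 1082 lower at 48 h, and 486 and 293 at 24 h. By the rule of a 2-fold difference in at least 2 experiments, 0 members passed at 48 h, where 79 of all 15521 probe sets passed as higher and 29 as lower. At 5 days 0 members passed except for 1 (Mrpl37, lower) in the fit of all 18 arrays with exchanged labels in experiment 1. In that fit 284 of all 15521 probe sets passed as higher and 141 as lower. With array medians the median log2 fold change over members at 5 days was 0.34, where that of all probe sets was 0.24. The cause of these changes was not tested.

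Of the values for single genes under the alternatives, 1246 of 1500 kept direction and side of the threshold, and none of those that turned direction belonged to a gene and time that had passed the test. With 1 experiment left out, the lowest and highest log2 fold changes at 24 h were Mrpl12 -0.015 to 0.13, Mrpl13 -0.15 to 0.022, Mrpl16 -0.095 to 0.10, Mrpl40 -0.047 to 0.14, Mrpl44 -0.013 to 0.11, Mrpl47 -0.033 to 0.054, Mrpl58 -0.094 to 0.031, Mrps14 -0.00016 to 0.033, Mrps18a -0.037 to 0.0094, Mrps2 -0.064 to 0.023, Mrps22 -0.14 to 0.023, Mrps25 -0.054 to 0.0035, Mrps31 -0.15 to 0.016, Mrps34 -0.098 to 0.086 and Mrps35 -0.088 to 0.073, and at 48 h Mrpl16 -0.083 to 0.056, Mrpl20 -0.17 to 1.48e-05, Mrpl44 -0.090 to 0.039, Mrpl46 -0.043 to 0.11, Mrpl47 -0.049 to 0.046, Mrps21 -0.045 to 0.11, Mrps22 -0.12 to 0.011 and Mrps26 -0.017 to 0.081. With array medians the turned values were Mrpl16 0.00059, Mrpl47 0.013 and Mrps18a 0.0067 at 24 h, Mrps2 0.0024 and Mrps30 0.0031 at 48 h and Mrpl17 0.11, Mrpl40 0.18, Mrpl47 0.18, Mrps15 0.16 and Mrps35 0.032 at 5 days, and without quantile normalization Mrpl47 0.0039 at 24 h. With probe sets averaged they were Mrpl12 -0.011 at 24 h, Mrps18c -0.18 and Mrps26 -0.014 at 48 h, both with dim probe sets in the average, and Mrps15 0.041 at 5 days. With the labels of experiment 1 exchanged at 5 days, alone or in the fit of all 18 arrays, they were Mrpl40 0.038, Mrpl47 0.034 and Mrps35 0.0055, and with experiment 2 also left out Mrpl17 0.076, Mrpl40 0.083, Mrpl47 0.076, Mrps14 -0.013, Mrps18a -0.11, Mrps35 0.078 and Mrps9 0.12. The normalization over 12 arrays and the exchange with experiment 2 left out were chosen after seeing the data. The precision is limited by 3 pairs a time.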
